A study of Homo sapiens with 10 samples.

Results

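The genes of cholesterol and fatty acid synthesis were examined in 10 conditions of T47D breast cancer cells, each measured on 1 Affymetrix U133A 2.0 array. The list held 38 genes, 20 of the sterol pathway and 18 of fatty acid and glycerolipid synthesis, and each was represented by the brightest of the probe sets paired with it alone. Of the 38, 32 had such a probe set (18 sterol and 14 fatty acid genes) among the 11963 genes of the array. FDFT1, CYP51A1, FADS1, THRSP, ACSL3 and GPAM were not analysed here. FABP5, a fatty acid-binding protein, stayed between 4.61 and 4.93 on the log2 scale and did not pass the level filter, which required log2 6 on at least 1 array. That left 31 members, 18 sterol and 13 fatty acid, among 10911 genes tested.

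The cells descended from T47D-Y, a subline without progesterone receptor (PR), and carried a vector whose product is made when the dimerizer AP21967 is added. The iKR line held PR-B with the K388R substitution, which removes the site of SUMO attachment, the iWT line held wild-type PR-B, and the iEV line held the empty vector and was PR null. All lines were serum starved. AP21967 or its ethanol vehicle was given for 2 days, and R5020, a synthetic progestin, or its ethanol vehicle for 6 hours. The study's methods give 1 nM AP21967 and 10 nM R5020, whereas the sample labels, read literally, give 10 nM and 100 nM. The iKR and iWT lines were each measured with R5020 and AP21967, with AP21967 alone, with R5020 alone and with neither. The iEV line was measured with AP21967 and without it, always without R5020, so that no PR-null response to R5020 was available. Each vector was represented by 1 line, and a difference between lines cannot be told apart from a difference between those lines' other properties. No condition had a replicate array.

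The receptor and a progestin target served as checks. PGR, the receptor gene, read 11.38, 12.08, 11.43 and 10.65 in iKR (AP21967 with R5020, AP21967, R5020, neither) and 11.89, 11.34, 11.77 and 11.12 in iWT, against 6.17 (AP21967) and 6.25 in iEV. Its signal was thus high in both receptor lines without the dimerizer as well. FKBP5, a progestin-induced chaperone, was higher with R5020 by 2.99 ± 0.08 (log2, SE) with AP21967 and by 0.84 ± 0.08 without it (adjusted p = 3.8e-07 and 0.021, limma). The luminal keratins KRT8 and KRT18 lay between 14.55 and 15.04 on every array, while the luminal factors FOXA1 and ESR1 varied more, from 9.85 to 11.30 and from 8.68 to 10.80. The leukocyte gene PTPRC lay between 6.02 and 6.22 and the fibroblast gene COL3A1 between 5.30 and 5.65, although COL1A1 read 9.59 to 9.77 and CD3E 8.09 to 8.29. Array medians spanned 8.118 to 8.148, and pairs of arrays correlated at 0.984 to 0.998 over probe sets.

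Cells build cholesterol from acetyl-CoA through mevalonate, squalene and lanosterol, and fatty acids from the same acetyl-CoA through malonyl-CoA. Both branches are controlled by the sterol regulatory element-binding proteins (SREBPs). SREBF2 encodes the form that acts mainly on cholesterol genes, and SREBF1 encodes the forms that act more on fatty acid genes. When sterols are plentiful, INSIG1 holds the SREBP escort protein in the endoplasmic reticulum, and INSIG1 is itself an SREBP target. Progestins are known to raise lipid synthesis genes in breast cancer cells. In bulk RNA, fewer cells expressing a gene and less RNA per cell cannot be told apart.

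Promoters of 27 of the 32 measured members were available from RefSeq (GRCh38.p14), as the 250 bases before and 50 after the start of the gene. ACAT2, DGAT1, FABP5, FASN and SQLE had no entry. Both strands were searched for 4 motifs, and matches that overlap each other were both kept. The CCAAT box, CCAAT or its reverse complement, is bound by NF-Y, a partner of SREBPs at sterol gene promoters. It was present in 14 of 16 sterol promoters and 3 of 11 fatty acid promoters (ELOVL5, SCD and ACLY), against 35.7% of all 27305 promoters of the same length. For 9 members the table lists several starts, of which the first listed was used, and with all starts the counts were 15 of 16, 6 of 11 and 39.7%. The sterol regulatory element TCACNCCAC was found in SREBF2 alone among the members and in 1.15% of all promoters. The E-box CACGTG lay in INSIG1, SC5D, LSS and ELOVL5 and in 7.43% of all promoters, and ACANNNTGT, the core of the progestin response element, in MSMO1 and FADS2 and in 5.45% of all. The promoters below belong to the 2 SREBP genes and to 5 members whose responses to R5020 are described next. They were chosen after the matches were seen, and the capitals mark every match to the 4 motifs.
SREBF2 (chr22:41832855-41833154, plus strand): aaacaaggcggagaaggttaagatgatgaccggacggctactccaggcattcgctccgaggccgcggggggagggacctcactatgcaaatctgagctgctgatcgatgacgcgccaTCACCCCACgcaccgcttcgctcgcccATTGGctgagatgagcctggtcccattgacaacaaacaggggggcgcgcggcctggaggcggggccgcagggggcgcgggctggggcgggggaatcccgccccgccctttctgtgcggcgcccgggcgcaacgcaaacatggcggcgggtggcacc
IDI1 (chr10:1056655-1056954, minus strand): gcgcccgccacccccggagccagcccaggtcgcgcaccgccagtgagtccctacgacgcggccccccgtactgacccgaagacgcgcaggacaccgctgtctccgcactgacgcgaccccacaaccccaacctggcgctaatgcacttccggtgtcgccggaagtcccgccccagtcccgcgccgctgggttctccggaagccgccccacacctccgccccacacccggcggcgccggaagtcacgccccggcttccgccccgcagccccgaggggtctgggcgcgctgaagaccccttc
NSDHL (chrX:152830813-152831112, plus strand): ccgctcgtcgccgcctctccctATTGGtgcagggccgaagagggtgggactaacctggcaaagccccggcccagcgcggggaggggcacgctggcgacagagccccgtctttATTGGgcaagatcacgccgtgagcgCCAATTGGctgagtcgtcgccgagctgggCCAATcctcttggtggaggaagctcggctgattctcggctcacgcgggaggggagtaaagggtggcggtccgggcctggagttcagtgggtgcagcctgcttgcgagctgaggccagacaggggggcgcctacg
DHCR7 (chr11:71448344-71448643, minus strand): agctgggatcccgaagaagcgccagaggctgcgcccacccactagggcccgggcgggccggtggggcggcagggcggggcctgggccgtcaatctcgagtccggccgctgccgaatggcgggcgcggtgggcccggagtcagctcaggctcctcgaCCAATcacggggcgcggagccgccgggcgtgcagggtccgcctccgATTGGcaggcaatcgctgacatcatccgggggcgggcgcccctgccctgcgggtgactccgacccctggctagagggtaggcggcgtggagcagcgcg
INSIG1 (chr7:155297628-155297927, plus strand): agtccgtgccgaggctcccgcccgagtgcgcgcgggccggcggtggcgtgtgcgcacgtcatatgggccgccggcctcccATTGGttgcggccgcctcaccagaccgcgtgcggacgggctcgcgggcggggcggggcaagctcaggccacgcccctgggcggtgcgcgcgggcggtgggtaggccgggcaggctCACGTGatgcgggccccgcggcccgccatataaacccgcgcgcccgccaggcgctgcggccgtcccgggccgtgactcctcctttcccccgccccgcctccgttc
ELOVL5 (chr6:53348901-53349200, minus strand): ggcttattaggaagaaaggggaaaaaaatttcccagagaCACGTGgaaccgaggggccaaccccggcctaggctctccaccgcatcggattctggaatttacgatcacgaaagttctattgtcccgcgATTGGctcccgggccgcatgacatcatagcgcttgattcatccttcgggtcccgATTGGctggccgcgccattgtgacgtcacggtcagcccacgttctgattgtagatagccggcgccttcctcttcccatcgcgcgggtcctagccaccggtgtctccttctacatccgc
SREBF1 (chr17:17836937-17837236, minus strand): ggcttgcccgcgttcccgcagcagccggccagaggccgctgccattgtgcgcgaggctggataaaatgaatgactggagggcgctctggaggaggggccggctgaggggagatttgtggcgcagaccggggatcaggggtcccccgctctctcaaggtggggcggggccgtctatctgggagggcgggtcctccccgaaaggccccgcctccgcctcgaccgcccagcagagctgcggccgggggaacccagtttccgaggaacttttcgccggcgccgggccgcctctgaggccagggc
NSDHL, DHCR7, INSIG1 and ELOVL5 each held at least 1 CCAAT box, whereas IDI1 and SREBF1, both called for R5020, held none of the 4 motifs in the window shown. A match is a description of letters and not a measured site.

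**Figure D1:**
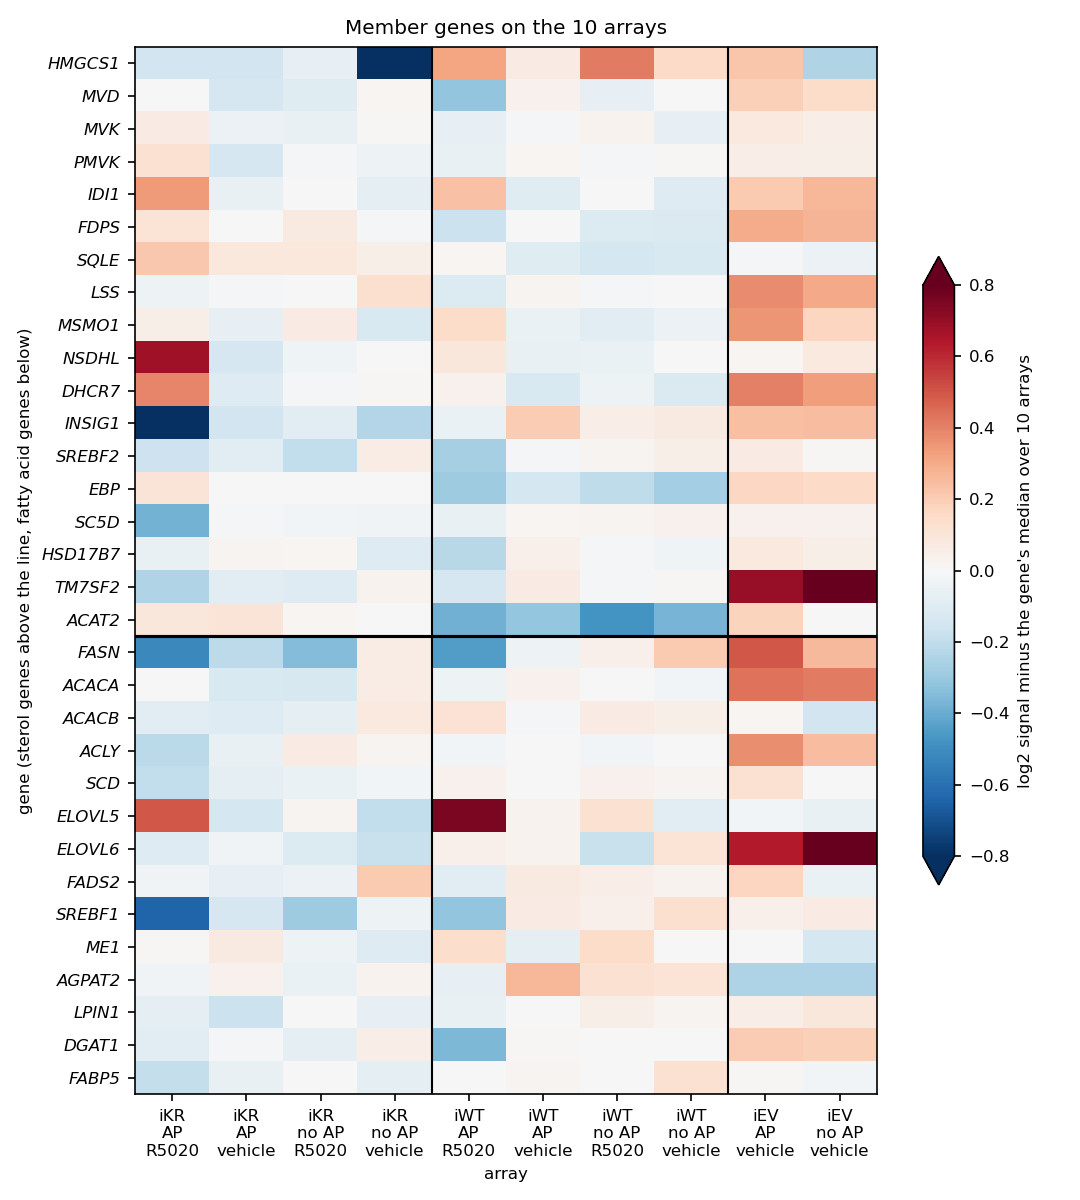
Each cell shows the log2 signal of 1 of the 32 measured members on 1 of the 10 arrays, minus that gene's median over the arrays (red above, blue below; the colour scale ends at 0.8). The iEV columns at the right are the highest for many genes in both sets, ELOVL5 is high on both arrays with AP21967 and R5020, and HMGCS1 is low on the iKR array with neither agent.

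R5020 was asked about first, with AP21967 present. The response of the members went both ways. Relative to vehicle, ELOVL5 and IDI1 rose and SREBF1, INSIG1 and FASN fell over both receptor lines. These were 2 of 31 higher and 3 of 31 lower, where 5.23% of all genes tested were higher and 6.25% lower (limma, adjusted p under 0.05), a share of the members near that of all genes. In this fit the iKR and iWT arrays stand in as replicates of a shared response, so that it does not test the receptors against each other.

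Among the fatty acid genes, ELOVL5, the elongase of polyunsaturated fatty acids, read 12.41 with R5020 against 11.77 with vehicle in iKR, and 12.67 against 11.94 in iWT, all with AP21967. Without AP21967 it read 11.93 with R5020 against 11.71 in iKR and 12.04 against 11.83 in iWT. Both arrays with R5020 and AP21967 stood above the other 8, of which the iEV pair read 11.89 with AP21967 and 11.85 without. The shared difference with AP21967 was 0.68 ± 0.08 (adjusted p = 0.001, limma). ELOVL5 is also the fatty acid member whose promoter, printed above, held both an E-box and CCAAT boxes, motifs found in 7.43% and 35.7% of all promoters. A link of these motifs to the response was not tested. A pair of dimmer ELOVL5 probe sets gave 0.31 and 0.20 in iKR, and -0.11 and 0.32 in iWT.

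SREBF1 read 10.58 with R5020 against 11.09 with vehicle in iKR and 10.90 against 11.28 in iWT. The shared difference was -0.44 ± 0.08 (adjusted p = 0.01, limma). In iKR it was also lower with R5020 when AP21967 was absent, at 10.94 against 11.18, while iWT read 11.26 against 11.34. FASN, the fatty acid synthase that forms palmitate, read 11.54 with R5020 against 11.85 in iKR and 11.61 against 12.01 in iWT. Its shared difference was -0.36 ± 0.09 (adjusted p = 0.031, limma). Without AP21967 FASN was lower with R5020 by a similar amount in iKR, 11.71 against 12.11, and read 12.10 against 12.27 in iWT. A dimmer FASN probe set gave 0.24 in iKR and 0.01 in iWT, and the FASN call was lost with the mean of both probe sets (adjusted p = 0.43, limma). Cyclic loess normalization lost the FASN call as well.

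Among the sterol genes, IDI1, which interconverts the isoprene units of the pathway, read 13.16 with R5020 against 12.76 in iKR and 13.06 against 12.72 in iWT. The shared difference was 0.37 ± 0.08 (adjusted p = 0.016, limma), and the second probe set gave 0.41 in iKR and 0.28 in iWT. Both IDI1 probe sets end in _x_at, so IDI1 was not tested with such probe sets left out. Without AP21967 IDI1 read 12.82 with R5020 against 12.74 in iKR and 12.82 against 12.72 in iWT. INSIG1 read 10.41 with R5020 against 11.06 in iKR and 11.17 against 11.42 in iWT, with a shared difference of -0.45 ± 0.10 (adjusted p = 0.026, limma). Its other probe sets gave -0.68 and -0.30 in iKR and -0.45 and -0.22 in iWT, so all 3 were lower with R5020 in both lines. Without either of the iKR arrays that received AP21967 the estimate was -0.25, which rested on the iWT pair alone. The INSIG1 call was also lost with cyclic loess normalization (adjusted p = 0.078, limma). SREBF2 was not called, and read 10.05 with R5020 against 10.13 in iKR and 9.95 against 10.21 in iWT. Without AP21967 SREBF2 read 10.02 against 10.28 in iKR and 10.24 against 10.27 in iWT, and the iEV arrays read 10.29 and 10.23.

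NSDHL and DHCR7 stood just outside the threshold. NSDHL, which acts in the removal of methyl groups from lanosterol, read 10.57 with R5020 against 9.76 with vehicle in iKR, but 9.99 against 9.83 in iWT. The 10.57 was the only NSDHL value above 10, and the second probe set gave 0.67 in iKR and 0.03 in iWT. Without AP21967 NSDHL read 9.86 with R5020 against 9.89 in iKR and 9.84 against 9.90 in iWT, and it read 9.91 and 9.97 in iEV. DHCR7, the enzyme of the last step to cholesterol, read 12.10 against 11.61 in iKR and 11.74 against 11.59 in iWT, and its second probe set gave 0.69 in iKR and 0.00 in iWT. Without AP21967 DHCR7 read 11.70 against 11.72 in iKR and 11.67 against 11.60 in iWT. The shared differences were 0.48 ± 0.13 for NSDHL (adjusted p = 0.052, limma) and 0.32 ± 0.10 for DHCR7 (adjusted p = 0.063, limma). Both passed with cyclic loess (adjusted p = 0.043 and 0.036, limma) and with a limma trend (0.034 and 0.029). Without either iKR array with AP21967 the estimate was 0.15 for each gene, which rested on the iWT pair alone. A line-by-R5020 term with AP21967, added after the data were seen, left 1 residual degree of freedom, namely the same difference without AP21967. It called NSDHL higher in iKR than in iWT (0.66 ± 0.13, adjusted p = 0.021, limma) and no other member, where 1.2% of all genes were called higher and 1.51% lower. DHCR7 differed by 0.33 ± 0.13 (adjusted p = 0.21) and INSIG1 by -0.40 ± 0.14 (adjusted p = 0.15, limma). The NSDHL call was lost with cyclic loess (adjusted p = 0.056), and a limma trend called 7 members (NSDHL, DHCR7, FDPS, INSIG1, MVD, PMVK and SC5D), so that these calls moved with the setting.

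Between single arrays, past 1.5 fold (0.585 on the log2 scale), R5020 with AP21967 gave NSDHL and ELOVL5 higher and INSIG1 lower in iKR, by 0.81, 0.64 and -0.65. In iWT it gave ELOVL5 higher, by 0.73, and no member lower. Over all genes 3.02% were higher and 3.16% lower in iKR, and 1.59% and 1.02% in iWT. With R5020 and AP21967, 11 of 18 sterol genes were higher in iKR and 6 of 18 in iWT (all genes, 55.6% and 46.0%). The R5020 difference in iKR minus that in iWT was above 0 for 14 of 18 sterol genes (median 0.14) and 6 of 13 fatty acid genes (median -0.09), where 57.7% of all genes were above 0 with a median of 0.04. NSDHL, at 0.66, was the only member past 1.5 fold in this difference, as were 1.03% of all genes. MVD, which forms isopentenyl diphosphate, and FDPS, which makes farnesyl diphosphate, were higher with R5020 in iKR and lower in iWT. MVD read 9.62 against 9.49 in iKR and 9.32 against 9.66 in iWT, and FDPS read 12.08 against 11.98 in iKR and 11.80 against 11.97 in iWT. By the line-by-R5020 term the gaps were not called (MVD 0.48, adjusted p = 0.072, and FDPS 0.28, adjusted p = 0.28, limma). Without AP21967 MVD read 9.53 with R5020 against 9.64 in iKR and 9.56 against 9.63 in iWT, and FDPS 12.04 against 11.95 in iKR and 11.87 against 11.86 in iWT.

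**Figure D2:**
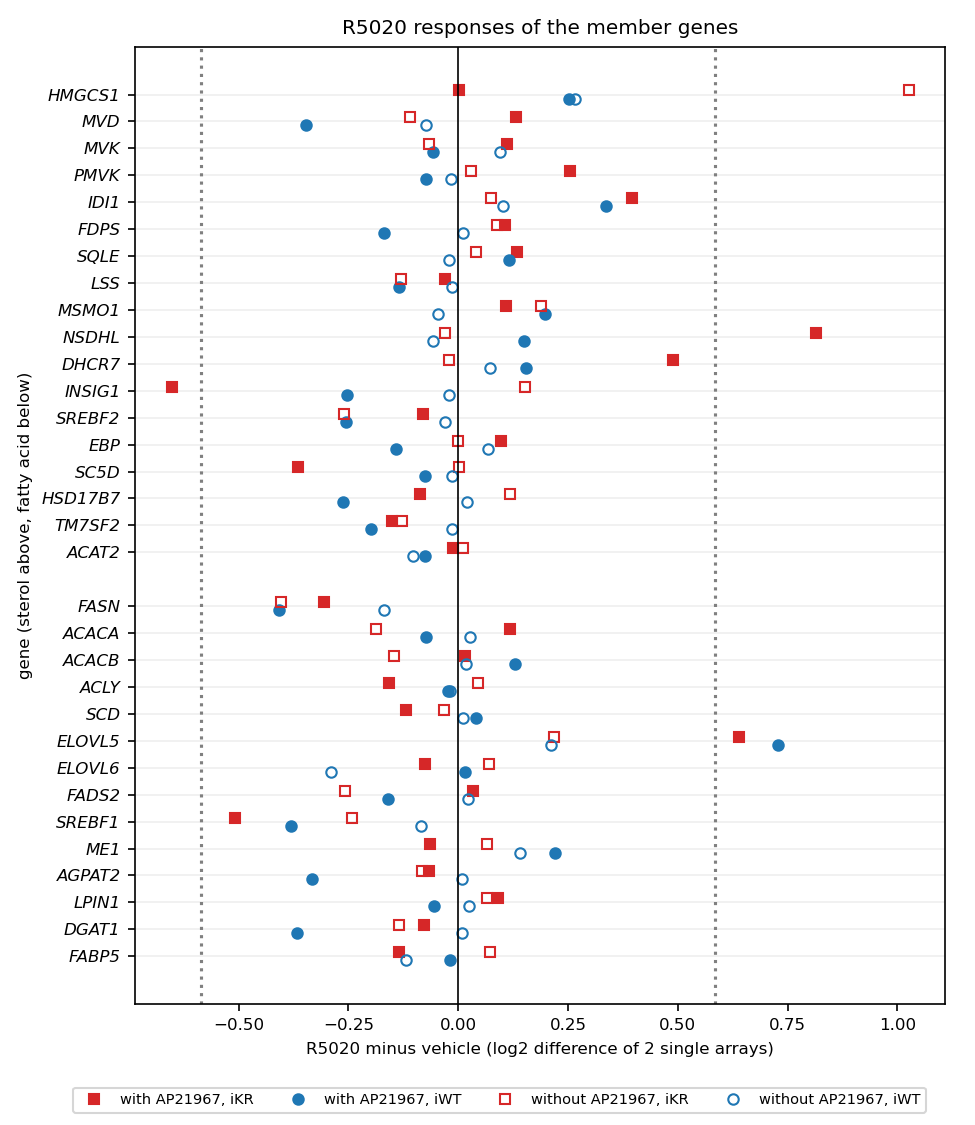
Each gene has 4 points, the R5020 minus vehicle log2 difference between single arrays in iKR (red squares) and iWT (blue circles), filled with AP21967 and open without it; dotted lines mark 1.5 fold. With AP21967 ELOVL5 lies past the line in both receptor lines, NSDHL and INSIG1 only in iKR, and the open HMGCS1 square at 1.03 comes from the array that was low for this gene.

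Without AP21967 no member was called for R5020, where 0.00917% of all genes tested were higher and 0% lower (limma). At an unadjusted p under 0.05, 2 members were higher (ELOVL5 and HMGCS1) and 1 was lower (FASN). Of all genes, 1.96% were higher and 1.99% lower at that cut (limma). The inducer-dependent response, the difference with AP21967 minus that without, was called for no member either, against 1.41% of genes higher and 0.687% lower, while 3 members in each direction had an unadjusted p below 0.05. ELOVL5 came closest, at 0.47 ± 0.11 (adjusted p = 0.069, limma). It was called with a limma trend (adjusted p = 0.017), and came to 0.27 (adjusted p = 0.25) with the mean of its probe sets. Over all alternatives, each array left out in turn included, its adjusted p ran from 0.017 to 0.45 (limma).

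HMGCS1, which makes the precursor of mevalonate, was checked for a single low array. It read 10.32 (AP21967 with R5020), 10.32 (AP21967), 10.41 (R5020) and 9.38 (neither) in iKR, 10.79, 10.54, 10.89 and 10.62 in iWT, and 10.69 (AP21967) and 10.23 in iEV. The iKR array with neither agent lay 1.15 below the median of the other arrays (10.54, SD 0.23) and 0.85 below the next lowest. The other HMGCS1 probe set read 9.86 on that array, within the 9.478 to 10.003 of the others and 0.04 above their median. The low value was therefore seen by 1 of the 2 probe sets of the gene. The gap to that median came to -1.13 with cyclic loess and -1.16 with median centring.

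The 2 widest single-array differences of HMGCS1 rested on that array. In iKR, AP21967 minus none came to 0.94 and R5020 minus vehicle without AP21967 to 1.03, where the other probe set gave 0.14 and 0.09. Past 1.5 fold, these made HMGCS1 the only member higher in either comparison, as were 0.11% of all genes with AP21967 and 0.0733% with R5020. The probe sets also parted under R5020 with AP21967, with 0.00 in iKR and 0.25 in iWT for the brighter one and -0.52 and -0.25 for the other. With the other probe set in its place, HMGCS1 fell by 0.39 ± 0.09 under R5020 with AP21967 (adjusted p = 0.027, limma, probe sets ending in _x_at or _s_at left out).

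**Figure D3:**
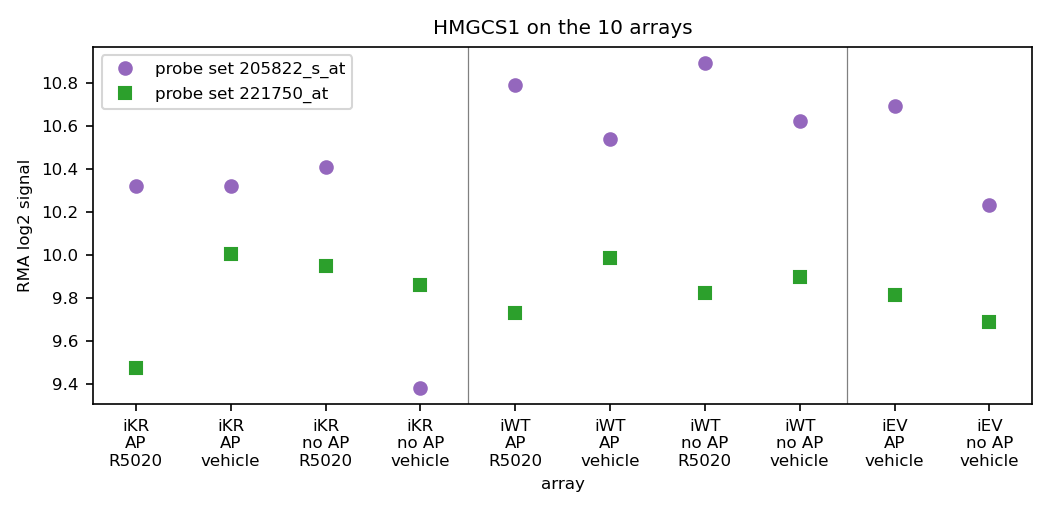
RMA log2 signal of the 2 HMGCS1 probe sets on each of the 10 arrays (1 point per array, no replicates). The brighter probe set reads 9.38 on the iKR array with neither agent and 10.23 to 10.89 elsewhere, while the other one reads 9.86 there.

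SCD, the desaturase that forms oleate, showed a like disagreement. Its brightest probe set read 13.26 (AP21967 with R5020), 13.38 (AP21967), 13.41 (R5020) and 13.44 (neither) in iKR, 13.50, 13.46, 13.50 and 13.49 in iWT, and 13.59 (AP21967) and 13.47 in iEV. R5020 with AP21967 gave -0.12 in iKR and 0.04 in iWT by that probe set. The other 3 SCD probe sets gave 0.18 to 0.37 in iKR and 0.11 to 0.39 in iWT. On vehicle arrays these 3 were also lower with AP21967 than without it, with differences of -0.22 to -0.44 in iKR and -0.27 to -0.43 in iWT, against 0.09 to 0.12 in iEV. Both sets of differences rested on the same AP21967 vehicle array of each line. On R5020 arrays the 3 read 13.03, 12.75 and 12.00 with AP21967 in iKR, against 12.98, 12.84 and 12.06 without it. In iWT they read 12.91, 12.80 and 12.01 against 13.06, 12.85 and 12.10. SQLE, the epoxidase of squalene, was higher with R5020 by all 3 of its probe sets, at 0.13, 0.44 and 0.24 in iKR and 0.11, 0.19 and 0.35 in iWT, and the brightest, first in each list, was not called. These probe set comparisons were made after the values were seen.

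AP21967 alone called no member and 0% of all genes in either direction (limma). At an unadjusted p under 0.05, 2 members were higher (ACAT2 and HMGCS1) and 0 lower. Of all genes, 4.59% were higher and 4.40% lower at that cut (limma). The sterol and fatty acid medians were 0.00 and -0.01. FASN read 11.85 with AP21967 against 12.11 without it in iKR and 12.01 against 12.27 in iWT, but 12.55 against 12.32 in iEV. The dimerizer was thus accompanied by lower FASN in both receptor lines and higher FASN in iEV, each on single arrays.

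More members were called between lines than between treatments. Among arrays without R5020, iKR and iWT were set against iEV, and most sterol genes read lower in the receptor lines. In iKR 13 of 31 members were lower and 1 higher than in iEV, against 12.8% and 12.9% of all genes, and in iWT 12 were lower and 1 higher, against 11.8% and 12.0% (limma, adjusted p under 0.05). The lower ones were 8 of 18 sterol and 5 of 13 fatty acid genes in iKR, and 8 of 18 and 4 of 13 in iWT. The sign was below 0 for 17 of 18 sterol genes in each line. It was above 0 for 4 of 13 fatty acid genes in iKR and 5 of 13 in iWT. Over all genes, 50.1% were above 0 in iKR and 52.2% in iWT. Both comparisons share the iEV arrays, of which the one with AP21967 gave the highest value of 15 of the 32 measured members.

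In the sterol set, TM7SF2, a reductase of sterol intermediates, had the widest gap. Without R5020 it read 12.74 (AP21967) and 12.86 in iKR and 12.90 and 12.84 in iWT, against 13.53 and 13.63 in iEV. The differences were -0.78 ± 0.06 for iKR and -0.71 ± 0.06 for iWT (adjusted p = 0.00015 and 0.00026, limma). DHCR7 read 11.61 and 11.72 in iKR and 11.59 and 11.60 in iWT, against 12.11 and 12.05 in iEV. Its differences were -0.42 ± 0.06 and -0.49 ± 0.06 (adjusted p = 0.0027 and 0.0013, limma). In both receptor lines the vehicle arrays stayed below both iEV arrays for these 2 genes.

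IDI1, FDPS, LSS and MSMO1 were called in both lines at smaller size, while HMGCS1, MVK, PMVK and SQLE were called in neither. SQLE differed from iEV by 0.10 in iKR and -0.08 in iWT, and HMGCS1 by -0.61 and 0.12. IDI1 read 12.76 (AP21967) and 12.74 in iKR and 12.72 and 12.72 in iWT, against 13.03 and 13.08 in iEV. FDPS read 11.98 and 11.95 in iKR and 11.97 and 11.86 in iWT, against 12.27 and 12.24 in iEV. IDI1 differed by -0.30 ± 0.06 in iKR and -0.34 ± 0.06 in iWT, and FDPS by -0.29 ± 0.06 and -0.34 ± 0.06 (adjusted p of 0.0042 to 0.0087, limma). LSS, which closes the sterol rings, read 11.32 and 11.46 in iKR and 11.36 and 11.33 in iWT, against 11.71 and 11.63 in iEV. MSMO1, a methylsterol oxidase, read 11.12 and 11.06 in iKR and 11.13 and 11.13 in iWT, against 11.53 and 11.35 in iEV. LSS was lower by 0.28 ± 0.07 in iKR and 0.33 ± 0.07 in iWT and MSMO1 by 0.35 ± 0.06 and 0.31 ± 0.06, with adjusted p of 0.006 to 0.021 (limma).

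Other sterol genes were called in 1 line only, which was not a test of the lines against each other. MVD read 9.49 (AP21967) and 9.64 in iKR and 9.66 and 9.63 in iWT, against 9.82 and 9.78 in iEV, and was called in iKR (-0.23 ± 0.07, adjusted p = 0.041, limma). INSIG1 was also called in iKR, at 11.06 and 10.98 there and 11.42 and 11.29 in iWT, against 11.46 and 11.46 in iEV (-0.44 ± 0.06, adjusted p = 0.0016, limma). EBP, a sterol isomerase, was called in iWT, with 11.59 and 11.59 in iKR and 11.45 and 11.32 in iWT, against 11.75 and 11.74 in iEV (-0.37 ± 0.06, adjusted p = 0.0042, limma). ACAT2, the cytosolic thiolase that joins acetyl-CoA units, was called in iWT too, at 10.69 and 10.60 in iKR and 10.28 and 10.22 in iWT, against 10.77 and 10.59 in iEV (-0.43 ± 0.06, adjusted p = 0.0017, limma).

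In the fatty acid set, ELOVL6, the elongase of palmitate, had the widest gap of all members in iKR, while in iWT that of TM7SF2 was wider. It read 8.46 (AP21967) and 8.31 in iKR and 8.52 and 8.61 in iWT, against 9.13 and 9.30 in iEV. The differences were -0.83 ± 0.08 and -0.65 ± 0.08 (adjusted p = 0.00035 and 0.0011, limma), and the second ELOVL6 probe set gave -0.86 and -0.83 in iKR and -0.79 and -0.88 in iWT. ACACA, the acetyl-CoA carboxylase of fatty acid synthesis, read 11.05 and 11.23 in iKR and 11.21 and 11.15 in iWT, against 11.61 and 11.59 in iEV. ACLY, which releases acetyl-CoA from citrate, read 12.40 and 12.49 in iKR and 12.47 and 12.46 in iWT, against 12.84 and 12.71 in iEV. ACACA was lower by 0.45 ± 0.07 in iKR and 0.42 ± 0.07 in iWT, and ACLY by 0.33 ± 0.07 and 0.31 ± 0.07 (adjusted p of 0.0032 to 0.013, limma).

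FASN was called in iKR (-0.45 ± 0.12, adjusted p = 0.026, limma), and came to -0.21 (adjusted p = 0.094) without the iEV array that received AP21967 and -0.33 (adjusted p = 0.20) without the iKR one. LPIN1, a phosphatidate phosphatase, read 10.06 (AP21967) and 10.17 in iKR and 10.23 and 10.26 in iWT, against 10.29 and 10.33 in iEV. DGAT1, which makes triglyceride, read 9.36 and 9.43 in iKR and 9.38 and 9.37 in iWT, against 9.58 and 9.56 in iEV. LPIN1 in iKR (-0.19 ± 0.06, adjusted p = 0.046, limma) and DGAT1 in iWT (-0.20 ± 0.06, adjusted p = 0.043, limma) passed narrowly, and leaving out any 1 array lost either call. AGPAT2, an acyltransferase of phosphatidic acid synthesis, was the exception in direction. It read 11.50 and 11.49 in iKR and 11.73 and 11.57 in iWT, against 11.22 and 11.21 in iEV (0.28 ± 0.06 and 0.44 ± 0.06, adjusted p = 0.015 and 0.0022, limma), and its second probe set gave 0.43 to 0.61.

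**Figure D4:**
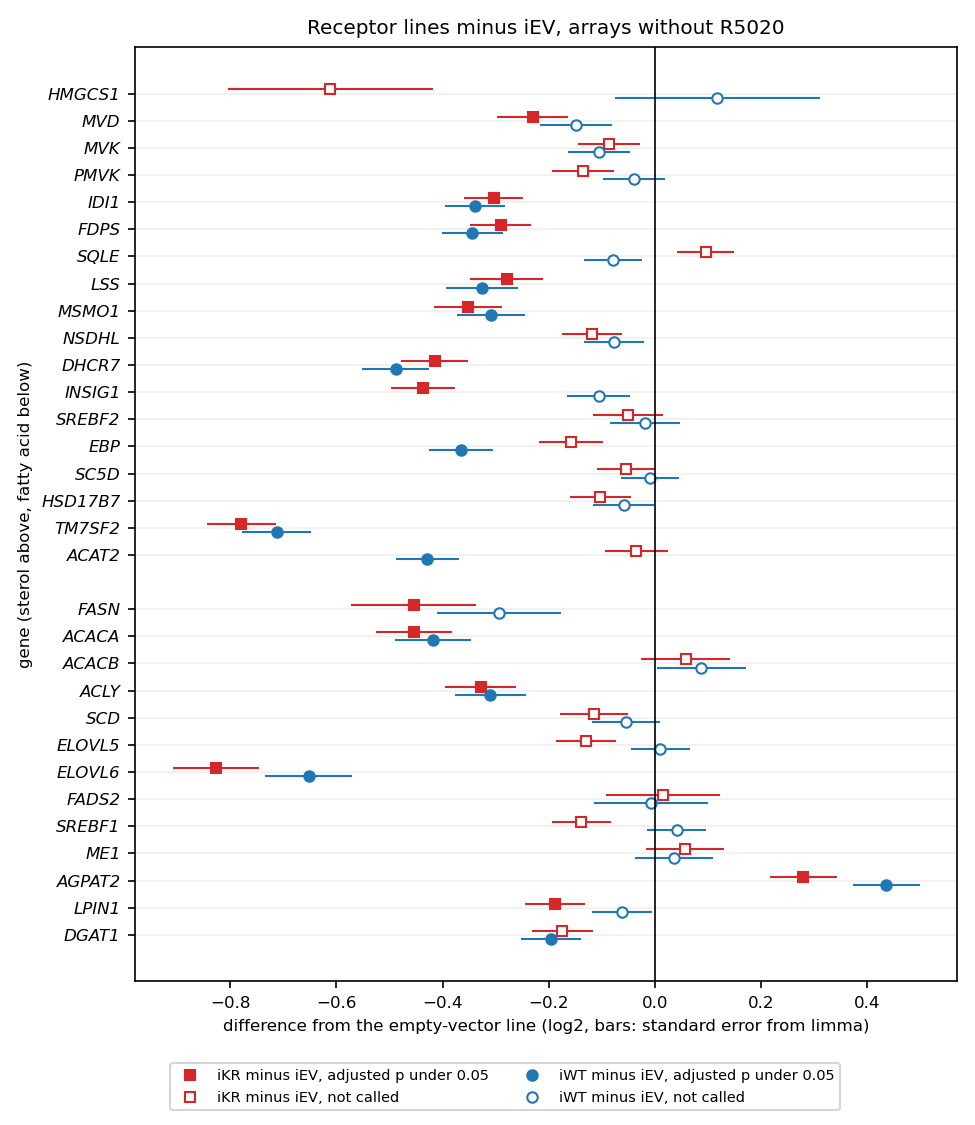
Difference of iKR (red squares) and iWT (blue circles) from iEV for the 31 members tested, on arrays without R5020; points are limma estimates, bars their standard errors, and filled points have an adjusted p under 0.05. TM7SF2 and ELOVL6 lie farthest below 0, AGPAT2 is the only filled gene above 0, and the SREBF2, SC5D, FADS2 and ME1 points lie near 0.

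With the R5020 arrays added, all 8 receptor-line arrays lay below both iEV arrays for 8 of 18 sterol genes (MVD, FDPS, LSS, MSMO1, INSIG1, EBP, HSD17B7 and TM7SF2) and 6 of 13 fatty acid genes (FASN, ACACA, ACLY, ELOVL6, LPIN1 and DGAT1), against 13.8% of all genes. All 8 lay above for AGPAT2, against 12.8% of all genes. Each gene's brightest probe set was used, and dimmer ones of EBP, INSIG1, LSS and ACACA overlapped iEV. A dimmer EBP probe set read up to 9.68 in iKR, against 9.63 in iEV without AP21967. A dimmer INSIG1 one read 11.18 in iWT with neither agent, against 11.14 and 11.05 in iEV. The margin was small for HSD17B7 (10.01 at most against 10.02 at least) and LPIN1 (10.28 against 10.29). IDI1 and DHCR7 were not among the genes below iEV, since some arrays with R5020 and AP21967 read near iEV levels. DHCR7 read 12.10 in iKR but 11.74 in iWT, against 12.11 and 12.05 in iEV, and IDI1 was at 13.16 in iKR and 13.06 in iWT against 13.03 and 13.08 in iEV. In the R5020 arrays (with AP21967, then without it) TM7SF2 read 12.59 and 12.73 in iKR and 12.70 and 12.83 in iWT, and ELOVL6 8.39 and 8.38 in iKR and 8.54 and 8.32 in iWT. LSS read 11.29 and 11.33 in iKR and 11.22 and 11.32 in iWT, and MSMO1 11.23 and 11.25 in iKR and 11.33 and 11.09 in iWT. All of these stayed below the iEV values given above, MSMO1 in iWT with AP21967 by the least. ACACA read 11.17 and 11.05 in iKR and 11.13 and 11.18 in iWT, and ACLY 12.25 and 12.53 in iKR and 12.44 and 12.44 in iWT. LPIN1 read 10.15 and 10.24 in iKR and 10.18 and 10.28 in iWT, and DGAT1 9.28 and 9.29 in iKR and 9.01 and 9.38 in iWT. The DGAT1 value of 9.01, in iWT with both agents, was the lowest of its 10 arrays. AGPAT2 read 11.43 and 11.41 in iKR and 11.40 and 11.58 in iWT, above both iEV arrays.

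The members MVK, PMVK, SC5D, HSD17B7, ACACB, FADS2 and ME1 were called in no comparison, with a range over the 10 arrays of 0.15 for MVK to 0.41 for SC5D. SC5D, which forms the substrate of DHCR7, owed its range to 11.58 in iKR with AP21967 and R5020. The other 9 arrays read 11.90 to 11.99.

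The iKR and iWT lines were then compared over 4 pairs of arrays with the same treatment. In iKR 3 members were higher and 3 lower than in iWT, against 4.18% and 2.69% of all genes (limma). ACAT2 was the steadiest, at 10.68 (AP21967 with R5020), 10.69 (AP21967), 10.61 (R5020) and 10.60 (neither) in iKR against 10.21, 10.28, 10.12 and 10.22 in iWT. The iKR arrays were thus all above the iWT arrays, by 0.44 ± 0.05 (adjusted p = 0.0016, limma). EBP read 11.69, 11.59, 11.59 and 11.59 in iKR against 11.30, 11.45, 11.38 and 11.32 in iWT (0.25 ± 0.05, adjusted p = 0.031, limma). SQLE read 11.88, 11.74, 11.74 and 11.70 in iKR against 11.68, 11.56, 11.52 and 11.54 in iWT (0.19 ± 0.04, adjusted p = 0.04, limma), with 11.64 and 11.61 in iEV. By these probe sets neither gene's groups overlapped between iKR and iWT, and the share of all genes that do so was not determined. The dimmest EBP probe set overlapped, at 8.47 to 8.66 in iKR and 8.53 to 8.59 in iWT. A dimmer SQLE probe set did too, at 10.31 to 10.75 and 10.22 to 10.41, while each gene's remaining probe set did not. Averaging the probe sets of each gene lost the EBP call, as did leaving out those ending in _x_at or _s_at. On the 4 arrays without R5020 neither EBP nor SQLE was called.

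The 3 lower members included INSIG1 and SREBF1, but SREBF2 was not called (-0.05, adjusted p = 0.73, limma). INSIG1 read 10.41, 11.06, 11.14 and 10.98 in iKR against 11.17, 11.42, 11.27 and 11.29 in iWT (-0.39 ± 0.09, adjusted p = 0.044, limma). SREBF1 read 10.58, 11.09, 10.94 and 11.18 in iKR against 10.90, 11.28, 11.26 and 11.34 in iWT (-0.25 ± 0.05, adjusted p = 0.024, limma). SREBF1 was lower in iKR in each of the 4 pairs, although the groups overlapped, and the iEV arrays read 11.26 and 11.29. On the 4 arrays without R5020 SREBF1 was not called (adjusted p = 0.11, limma). The INSIG1 call was lost with cyclic loess (adjusted p = 0.066, limma) and in 4 of 8 fits with 1 array left out. HMGCS1 was called by its brighter probe set (-0.60 ± 0.14, adjusted p = 0.043, limma), and without the low array or its iWT pair the estimate was -0.39. The other HMGCS1 probe set gave -0.26 (AP21967 with R5020), 0.02 (AP21967), 0.13 (R5020) and -0.04 (neither), so the call rested on 1 probe set.

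Set side by side, the sterol median was -0.03 and the fatty acid median -0.04 for R5020 with AP21967, where all genes had 0.01. These pooled values covered unlike lines, since on single arrays the sterol and fatty acid medians were 0.10 and -0.07 in iKR and -0.08 and -0.06 in iWT. Without AP21967 the fitted medians for R5020 were 0.01 and -0.06. For the lines, the sterol median was -0.19 and the fatty acid median -0.14 in iKR minus iEV, and -0.13 and -0.06 in iWT minus iEV, with all genes at 0.00 and 0.01. In iKR minus iWT the sterol median was 0.03 and the fatty acid median -0.10, with 11 of 18 sterol genes and 2 of 13 fatty acid genes above 0, against 49.7% of all genes. Over the 4 arrays without R5020 the medians were -0.04 and -0.06, with 8 of 18 and 3 of 13 above 0. Without either array of the pair with AP21967 and R5020 they were -0.02 and -0.07, with 8 of 18 and 1 of 13 above 0. These medians are descriptions without a test.

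**Figure D5:**
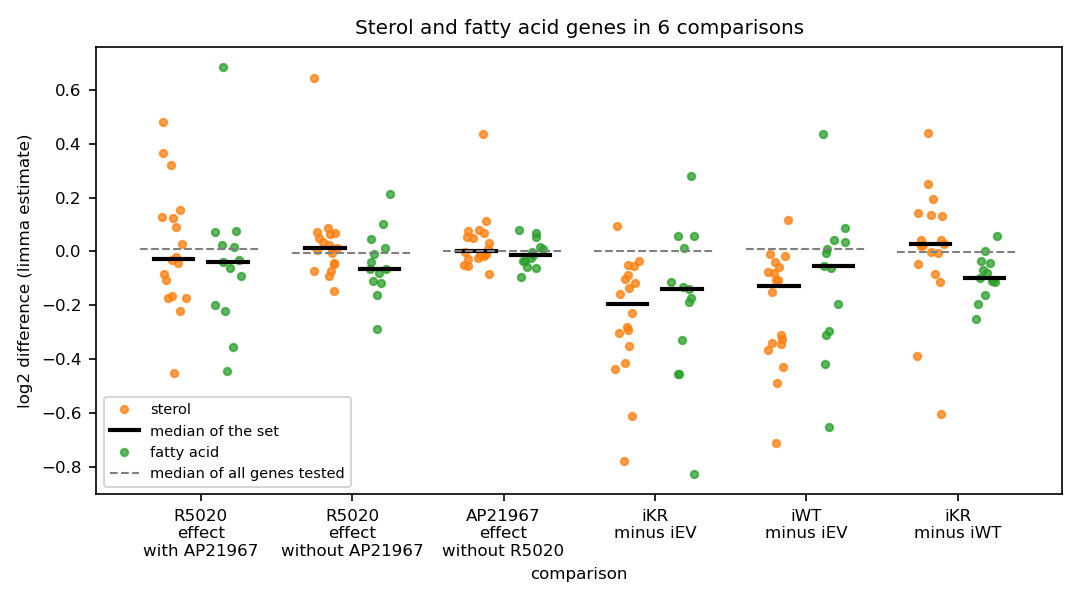
Each point is the limma estimate (log2) for 1 of 18 sterol (orange) or 13 fatty acid genes (green) in 6 comparisons; black bars are the medians of the 2 sets and dashed lines the median of all 10911 genes. Both sets lie mostly below 0 against iEV, and ELOVL5 is the high green point for R5020 with AP21967.

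Of 20 other sterol genes listed (transport, sensing and further enzymes), 15 were measured and tested, and R5020 with AP21967 called 1 higher and 1 lower. Of all genes 5.23% were higher and 6.25% lower, near the share in this list and in the next. NPC1, the lysosomal cholesterol exporter, rose by 0.35 ± 0.08 (adjusted p = 0.024, limma), and INSIG2, the paralog of INSIG1, fell by 0.84 ± 0.11 (adjusted p = 0.0025, limma). Both INSIG genes were therefore lower with R5020. Of 24 other fatty acid and glycerolipid genes, 21 were measured and 19 tested, with 1 higher and 1 lower. PLIN2, which coats lipid droplets, rose by 0.44 ± 0.08 (adjusted p = 0.01, limma), and CD36, a fatty acid transporter, fell by 0.39 ± 0.08 (adjusted p = 0.018, limma). Against iEV the other sterol genes gave 5 higher and 1 lower in iKR and 4 and 2 in iWT, where the sterol members had 0 higher and 8 lower in each line. Of all genes 12.9% were higher and 12.8% lower in iKR, and 12.0% and 11.8% in iWT.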

How the data were processed

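RNA of 10 conditions of T47D cells was hybridised to 1 Affymetrix U133A 2.0 array each. The labels name Trizol for the extraction and the study's methods an RNeasy kit. The authors processed the raw files in R with affy and affyQCReport (versions not given in the sources used here) by Robust Multi-array Average, so the deposited values are background-corrected, quantile-normalized log2 signals per probe set, from 4.01 to 15.28. Quantile normalization sets all arrays to 1 distribution, so that a shift of all genes cannot be seen, and precision is limited by the number of arrays. The raw files were not used here.

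Of 22277 probe sets, GEO's platform annotation paired 19070 with 1 gene, 1043 with several and 2164 with none. Each gene took its brightest probe set on average, and genes reaching log2 6 on at least 1 array were kept. limma 3.58.1 (R 4.3.3, lmFit and eBayes) was fitted to all 10911 genes with Benjamini-Hochberg adjustment, called at an adjusted p under 0.05. R5020 effects came from the 8 iKR and iWT arrays (mean per line and inducer state, 2 residual degrees of freedom), AP21967 and iEV comparisons from the 6 arrays without R5020 (line and AP21967, 2), and iKR minus iWT from 8 arrays (treatment state, 3). A line-by-R5020 term with AP21967 was added to the first fit after the data were seen (7 parameters, 1 residual degree of freedom). Lines or inducer states so stand in as replicates, and p-values measure the spread between these arrays. The fits, apart from the line-by-R5020 term, were tested on simulated arrays drawn independently. The simulated R5020 effect was the same in both lines, so lines that respond unlike each other were not covered. Values on every array were printed for members called in any comparison, those past 1.5 fold for R5020 with AP21967 or for AP21967, and 6 genes chosen by name (HMGCS1, INSIG1, SREBF1, SREBF2, FASN and SCD). Of the other lipid lists, genes called for R5020 were named. The members and lists were chosen with earlier results of these data known. Alternatives were other level filters, probe set rules, normalizations, limma settings, array sets and fold thresholds. Python 3.11.15 (numpy 2.4.6, pandas 2.3.3, matplotlib 3.10.9) was used for the rest.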

Additional observations from a re-analysis of the deposited data

Results flagged for a closer look

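For 7 pairs of single-array differences the lines moved in opposite directions by at least 0.1 (log2) on each side. The share of all genes that meet this rule was not determined, so the count is a description only. With AP21967 present, a line-by-R5020 term with 1 residual degree of freedom called NSDHL, whose R5020 difference was larger in iKR than in iWT by 0.66 (adjusted p = 0.021, limma; lost with cyclic loess). MVD was higher with R5020 by 0.13 in iKR and differed by -0.35 in iWT, a gap of 0.48 (adjusted p = 0.072, limma), and FDPS differed by 0.11 and -0.17, a gap of 0.28 (adjusted p = 0.28, limma). The differences between lines for AP21967 were not tested. For AP21967 against none, FASN differed by -0.27 in iKR, against 0.24 in iEV (gap -0.50), and by -0.25 in iWT, against 0.24 in iEV (gap -0.49). FADS2, the desaturase of polyunsaturated fatty acids, differed by -0.28 in iKR, against 0.23 in iEV (gap -0.50). ACACB, the mitochondrial acetyl-CoA carboxylase, differed by -0.18 in iKR, against 0.17 in iEV (gap -0.34). ELOVL6 went the other way, by 0.15 in iKR, against -0.18 in iEV (gap 0.33). Its second probe set gave 0.01 in iKR and 0.04 in iEV, so the opposite directions were not seen there. The dimmer ACACB probe sets were mixed, at -0.14, -0.05 and 0.15 in iKR and -0.09, 0.18 and -0.09 in iEV. The dimmer FASN probe set kept the directions, at -0.31 in iKR, -0.11 in iWT and 0.04 in iEV.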

How the results depend on the processing

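Without _x_at and _s_at probe sets 19 members were tested in place of 31, and 7 were called in iKR minus iEV (14 in the report), 7 in iWT minus iEV (13) and 3 in iKR minus iWT (6); the sterol minus fatty acid median then came to -0.10 for R5020 with AP21967 (0.01 in the report), 0.083 for AP21967 (0.02) and 0.048 for iKR minus iEV (-0.06). For the receptor difference of the R5020 response (1 member), tested after the data were seen, a limma trend called 7 and cyclic loess 0, and leaving out an array left no residual degree of freedom. A limma trend called 1 member for the inducer-dependent response (0), and the 4 arrays without R5020 called 2 in iKR minus iWT. Past 1.5 fold, the mean of probe sets left 0 members in iWT, and at 2.0 fold 0 remained in either line. HMGCS1 on its low array stood 0.036 above the median by the other probe set. For R5020 with AP21967, cyclic loess called 4 higher and 1 lower, against 2 and 3, and for iKR minus iWT 3 higher and 1 lower, against 3 and 3; the cause was not tested. Leaving out 1 array at a time gave 6 to 7 calls for R5020 with AP21967, 0 to 1 without it, 0 to 4 for the inducer-dependent response (4 without either iWT array that received AP21967), 0 for AP21967, 7 to 13 for iKR minus iEV (7 without the iKR array and 8 without the iEV array that received AP21967), 6 to 13 for iWT minus iEV (6 without the iWT array with neither agent) and 2 to 7 for iKR minus iWT. No named call reversed. EBP, SQLE and SREBF1 lost their iKR minus iWT calls in 6 of 8 such fits, and MVD its iKR minus iEV call in 5 of 6. Without 1 of the AP21967 arrays, the R5020 effect with AP21967 rested on the 1 pair of arrays of the other line. The R5020 effect without AP21967 did likewise without 1 of its own arrays. Those R5020 counts therefore do not measure how steady the calls are.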
